A study of Mus musculus with 6 samples.

Results

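The SR splicing factor genes Srsf1, Srsf2, Srsf3, Srsf4, Srsf5, Srsf6, Srsf7, Srsf9, Srsf10 and Srsf11 were followed in mouse embryos depleted of Eif4a3 RNA, at the level of the gene and of single exons. The 10 genes were taken by symbol from 55102 genes with a symbol in the deposited exon count table. Exon lines that overlap were joined into blocks, each block took the count of its most counted line, and a gene value was the sum over its blocks. Mouse zygotes had been microinjected with siRNA-NC, the negative control, or with siRNA-Eif4a3. The blastocysts were taken on day 5, and each group had 3 libraries of 5 pooled embryos, made from polyA RNA by Smart-seq2. The control differs from the knockdown in the siRNA alone as far as the labels say, and no strain is named in them. Neither parents nor injection sessions are recorded, so every p-value measures the spread between these 6 libraries, which may be technical in part. In pools of whole embryos, fewer cells of a type and less RNA per cell cannot be told apart.

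SR proteins carry RNA recognition motifs and a domain rich in arginine and serine. They bind exonic enhancers, help to define exons, and several of them also accompany mRNA out of the nucleus. Most SR genes limit their own output with a poison exon, a cassette exon whose inclusion puts a stop codon upstream of further exon junctions. An exon junction complex, built around the helicase EIF4A3, is left upstream of each junction when introns are removed. A complex that remains downstream of a terminating ribosome recruits the decay factors of nonsense-mediated decay, so that transcripts with a poison exon are normally short-lived.

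The stop-bearing cassette exons of Srsf3, Srsf7, Srsf11, Srsf9 and Srsf6 are shown from their first base to the stop codon that ends the reading frame, to let the position of that stop be compared between the genes. They include exons that did not pass the usage test below, in Srsf11 and Srsf9. Sequences are those of GENCODE vM21 transcripts annotated as decay substrates on GRCm38, written 5′ to 3′ on the strand of the gene, and the capitals mark the stop codon.
Srsf3 456-base exon: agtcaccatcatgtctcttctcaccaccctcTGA
Srsf7 460-base exon: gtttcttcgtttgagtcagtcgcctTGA
Srsf11 109-base exon: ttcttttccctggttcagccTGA
Srsf9 358-base exon: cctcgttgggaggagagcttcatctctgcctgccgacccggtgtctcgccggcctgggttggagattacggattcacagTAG
Srsf6 268-base exon: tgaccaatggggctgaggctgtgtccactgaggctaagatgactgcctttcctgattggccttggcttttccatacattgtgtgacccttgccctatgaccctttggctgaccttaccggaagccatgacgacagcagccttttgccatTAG
The frame thus ended after 34 bases of the Srsf3 exon, 28 of the Srsf7 exon, 23 of the Srsf11 exon, 82 of the Srsf9 exon and 152 of the Srsf6 exon. In these annotated transcripts 3 exon junctions follow the stop codon of Srsf3, 5 those of Srsf7 and Srsf11, and 4 those of Srsf6 and Srsf9. The distance from the stop codon to the last junction was 548 bases in Srsf3, 699 in Srsf7, 456 in Srsf11, 534 in Srsf6 and 700 in Srsf9. The Srsf2 poison exon works differently, since it lies wholly after the normal TAA stop codon in exon 2. Its inclusion leaves 3 junctions after that stop codon, the last of them 217 bases away, and its own bases are not shown.

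Eif4a3, the targeted gene, measured 302, 255 and 202 CPM (counts scaled to library size) in siRNA-NC replicates 1 to 3 and 16.0, 36.2 and 56.2 CPM in siRNA-Eif4a3 replicates 1 to 3. By edgeR the log2 fold change was −2.81, with an adjusted p of 0.00513. Gene sums added up to between 15607226 and 18697761 counts per library. Of 10 blastocyst lineage markers 10 were tested, 0 were higher and 4 lower (Krt18, Pdgfra, Eomes and Sox2). The summed level of these markers was 2214 to 5347 CPM in siRNA-NC and 662 to 2220 CPM in siRNA-Eif4a3, so the pools did hold blastocyst RNA but at unequal marker levels. Markers of cumulus cells were at or near 0 (5 of 6 listed at 0 in every library), and sperm markers summed to at most 2.59 CPM. Fibroblast markers summed to 1.79 to 11.7 CPM in siRNA-NC and 0.963 to 10.7 CPM in siRNA-Eif4a3. Blood markers summed to 5.71 to 41.0 and 2.67 to 6.14 CPM, and 1 of 3 tested, Hbb-bs, was lower. The median share of a gene's counts in its 3′ block, over 11899 genes, was 22.2%, 25.1% and 24.1% in siRNA-NC and 19.5%, 25.0% and 21.8% in siRNA-Eif4a3. The part of these differences in the results below was not tested.

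At the gene level, Srsf7 rose in the knockdown and none of the other 9 genes passed the test. Srsf7 encodes an SR protein with a zinc knuckle that also serves as an adaptor for mRNA export. It measured 697, 1015 and 980 CPM in siRNA-NC and 1474, 2306 and 2650 CPM in siRNA-Eif4a3, 2.39-fold more on average. This sum includes the Srsf7 poison exon described below. Every knockdown library lay above every control library, and edgeR's quasi-likelihood test gave a log2 fold change of 1.26 (standard error 0.34, adjusted p 0.0359). Over all 15619 genes tested, 7.52% were called higher and 5.56% lower, so 1 higher call among 10 genes is near the background. The Srsf7 call was lost when any control library, knockdown replicate 2 or knockdown replicate 3 was left out (adjusted p 0.0934 to 0.101). Its log2 fold change then stayed between 1.07 and 1.31.

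Srsf1, the founding member of the family and a general activator of splice site choice, was the clearest on the lower side without passing. It measured 34.6, 37.5 and 29.1 CPM in siRNA-NC and 16.3, 20.2 and 17.9 CPM in siRNA-Eif4a3, with no overlap (log2 fold change −0.89, standard error 0.29, adjusted p 0.0695). The adjusted p was 0.0431 with DESeq2 and 0.0422 by edgeR with the most counted block alone. That block already made up 93.5% ± 2.34 of the gene sum in siRNA-NC and 88.2% ± 7.56 in siRNA-Eif4a3 (SD, n = 3), so it is not an independent measure. The 4 upstream exons of an annotated Srsf1 coding transcript had knockdown to control ratios of 1.05, 0.84, 0.87 and 0.89, with overlapping groups, and the 434-base last exon had 0.62, with no overlap. That last exon went from 9.73 ± 1.68 to 6.03 ± 0.69 CPM (SD, n = 3), which did not pass as a level (adjusted p 0.171). None of these exons passed in usage (adjusted p 1.0 for each).

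Srsf10, whose product acts as a splicing repressor when dephosphorylated, was higher in every knockdown library than in any control library. It measured 79.0, 121 and 128 CPM in siRNA-NC and 134, 156 and 225 CPM in siRNA-Eif4a3 (log2 fold change 0.65, standard error 0.31, adjusted p 0.193). With only its most counted block the value was 0.97 and passed (adjusted p 0.0460). Groups also failed to overlap upward in 20.1% and downward in 16.3% of all genes tested, so 2 and 1 of the 10 SR genes are close to those shares.

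The other 7 genes had overlapping groups. Srsf2, which binds exonic enhancers, measured 116, 102 and 79.2 CPM in siRNA-NC and 115, 121 and 129 CPM in siRNA-Eif4a3 (log2 fold change 0.30, adjusted p 0.492). Srsf3, the smallest SR protein and an export adaptor, measured 306, 296 and 418 against 228, 268 and 314 CPM (−0.33, adjusted p 0.466). Srsf5 measured 234, 195 and 173 against 183, 94.9 and 191 CPM (−0.36, adjusted p 0.492). Knockdown replicate 2 was the lowest of its group for Srsf5, Srsf6, Srsf9 and Srsf11. Srsf6 measured 179, 120 and 103 against 127, 64.4 and 94.9 CPM (−0.49, adjusted p 0.360). Srsf9 measured 88.6, 69.6 and 30.2 against 55.4, 47.0 and 82.1 CPM (−0.03, adjusted p 0.969). Srsf11 measured 131, 124 and 74.4 against 107, 93.9 and 170 CPM (0.17, adjusted p 0.777). Srsf4 was the least abundant, with 10.1, 5.64 and 2.89 against 5.81, 3.88 and 2.53 CPM (−0.61, adjusted p 0.487 by edgeR). The last Srsf4 block held 63.1%, 74.1% and 70.5% of this sum in siRNA-NC and 58.1%, 100% and 95.2% in siRNA-Eif4a3. Exons of other genes overlap 43.0% of the Srsf4 and 25.3% of the Srsf2 bases in merged blocks. Pairs from a gene and its antisense neighbour cannot be told apart in these libraries. The median log2 fold change was −0.18 over the 10 genes and 0.03 over all genes tested.

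**Figure D1:**
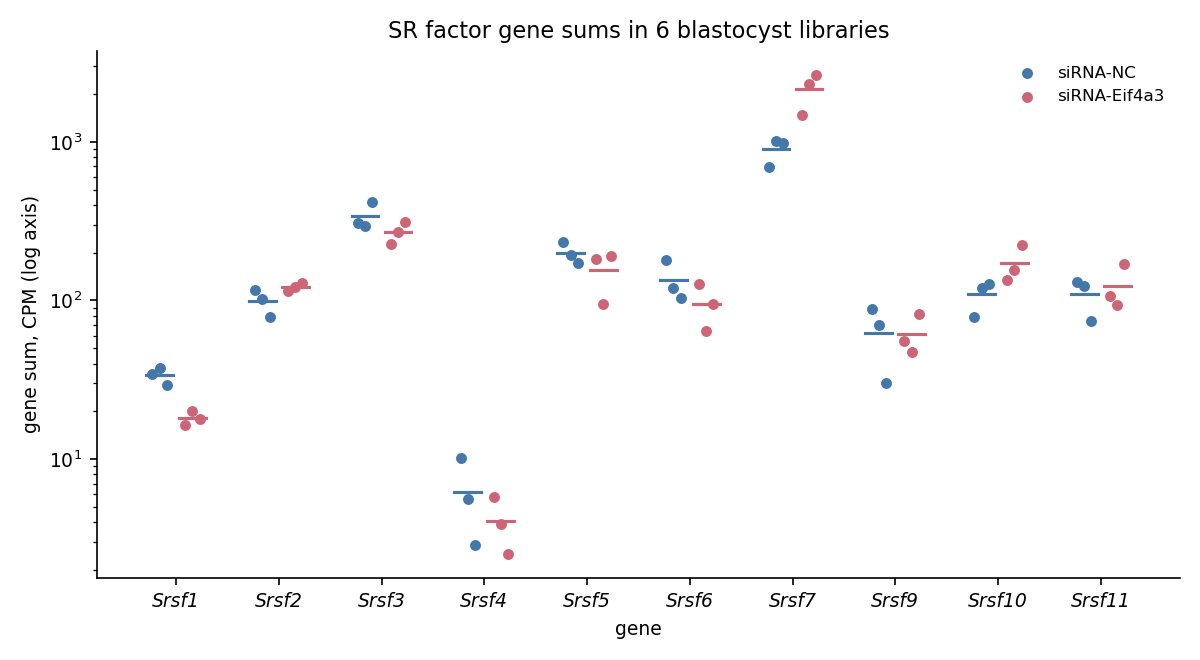
Gene sums of the 10 SR genes in CPM on a log axis, with 1 point per library, siRNA-NC in blue, siRNA-Eif4a3 in red and a bar at each group mean. The 3 Srsf7 knockdown libraries (1474 to 2650 CPM) lie above the controls (697 to 1015 CPM), the Srsf1 knockdown libraries lie below theirs, and most other genes overlap.

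Per kilobase of counted exon, Srsf7 was the most abundant SR gene in siRNA-NC, at 253 ± 49.1 CPM per kb (SD, n = 3), and no library of it overlapped Srsf2, the next, at 62.5 ± 11.8. Srsf5 (50.8), Srsf3 (43.4), Srsf9 (38.0), Srsf6 (27.8), Srsf10 (22.8) and Srsf11 (14.5) followed, each overlapping its neighbour in the order. Srsf1 (6.32 ± 0.80) lay below Srsf11 without overlap, and Srsf4 (1.74 ± 1.02) below Srsf1. In the knockdown Srsf7 stood at 604 ± 170 CPM per kb. The 10 genes summed to 1876, 2084 and 2017 CPM in siRNA-NC and to 2445, 3175 and 3876 CPM in siRNA-Eif4a3. Srsf7 alone made up 37.2%, 48.7% and 48.6% of that sum in siRNA-NC and 60.3%, 72.6% and 68.4% in siRNA-Eif4a3.

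Exons were then compared with the rest of their own gene. A cassette exon was taken as an exon line that lies wholly inside an intron of another transcript of the gene. Where such lines overlapped, only the first in order was kept, with lines of a decay transcript first and then the most counted. Among the lines kept, 21 had at least 10 counts over the 6 libraries. Of the 21, 5 rose in usage relative to the other exon lines of the gene, 0 fell, 11 did not pass and 5 had too few counts to be tested. Those other lines can include ones that overlap or contain the exon and share its read pairs. Of all 133849 exon lines tested, 0.111% were called higher and 0.0486% lower. The 5 that rose were the annotated poison exons of Srsf2, Srsf3 and Srsf7, the stop-bearing cassette of Srsf6 and an end exon of Srsf5. Of these, the Srsf6 cassette passed the filter on low counts only through the knockdown libraries. Exon counts were also set against the gene sum, as a percent of it. The gene sum does not hold the whole exon for 5 of the 21 (Srsf2 104 and 81 bases, Srsf11 109 and 64 bases, and Srsf10 2087 bases), because the line kept for the block leaves it out in whole or in part, so for these the percent is a ratio and not a share. By this measure 9 of the 21 exons lay higher in every knockdown library than in any control library, and 3 lay lower. The same held for 10.7% and 8.2% of all exon lines tested. Those percents leave out lines with too few counts to test, as were the Srsf9 358-base and Srsf11 64-base exons here. The 9 were the 5 that rose, both Srsf9 cassettes, and the coding cassettes of Srsf3 (208 bases) and Srsf7 (36 bases), and the 3 were the Srsf10 exons of 390 and 2087 bases and the Srsf11 exon of 64 bases. The design allows no p under 0.1 in an exact permutation test of such a percent, and these 12 exons reached that value.

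The Srsf2 exon (chr11:116851648-116851751, minus strand, 104 bases) had the largest change in usage. It held 28, 16 and 12 counts in siRNA-NC and 506, 392 and 209 counts in siRNA-Eif4a3. Relative to the gene sum, which does not hold this exon, its count went from 1.20%, 1.04% and 0.994% to 20.6%, 19.6% and 9.76%, and knockdown replicate 3 was the lowest of its group. Usage rose by 3.55 on the log2 scale (standard error 0.38, 95% interval 2.79 to 4.31, adjusted p 1.9e-08 by edgeR's exon usage test). The exons on either side rose far less in level, from 17.0 ± 6.46 to 35.0 ± 5.38 CPM upstream and from 29.7 ± 4.64 to 56.0 ± 3.41 CPM downstream, against 1.08 ± 0.30 to 20.0 ± 6.44 CPM for the poison exon (SD, n = 3). Set against the mean count of these 2 neighbours, without correction for length, the exon stood at 5.09%, 4.41% and 4.26% in siRNA-NC and 50.6%, 54.1% and 27.5% in siRNA-Eif4a3. No exon of another gene overlaps it. Leaving out any 1 library kept the call (adjusted p 1.9e-07 to 2.8e-05).

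The Srsf7 exon (chr17:80204622-80205081, minus strand, 460 bases) was the most abundant of the poison exons. It held 387, 304 and 421 counts in siRNA-NC and 4303, 4970 and 5080 counts in siRNA-Eif4a3. Its share of the gene sum went from 2.76%, 1.99% and 2.82% to 13.7%, 13.1% and 11.5%, so the 3 libraries of each group were close together. Usage rose by 2.28 on the log2 scale (standard error 0.36, 95% interval 1.56 to 3.00, adjusted p 4.9e-05 by edgeR's exon usage test). The exon's own level rose 12.1-fold, from a mean of 22.4 to 269 CPM. The gene sum, which holds this exon, went from a mean of 897 to 2143 CPM. The call was lost without siRNA-NC replicate 2 (adjusted p 0.0553).

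Along the Srsf7 transcript with the poison exon, the 5 exons downstream of it were 2.33-fold to 2.82-fold higher in the knockdown, with no overlap between groups. Exon 1 was 2.92-fold higher and exon 2 was 1.67-fold higher. Exon 3, of 177 bases directly upstream of the poison exon, had a ratio of 0.92, with 172 ± 28.2 CPM in siRNA-NC and 159 ± 46.6 CPM in siRNA-Eif4a3 (SD, n = 3). Its usage estimate was −1.43 on the log2 scale and did not pass (adjusted p 0.103). The poison exon went from 22.4 ± 4.59 to 269 ± 58.8 CPM and so went from the least counted exon of this transcript to the middle of the range. A cassette of 36 bases near the 3′ end, which keeps the reading frame, had a usage estimate of 0.18 that did not pass (95% interval −0.57 to 0.94). Its share of the gene sum went from 9.80%, 10.8% and 10.6% to 11.9%, 12.5% and 12.4%, without overlap.

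The Srsf3 exon (chr17:29039454-29039909, plus strand, 456 bases) held 22, 31 and 12 counts in siRNA-NC and 161, 158 and 75 counts in siRNA-Eif4a3. Its share of the gene sum went from 0.357%, 0.696% and 0.188% to 3.31%, 3.57% and 1.44%. In both groups replicate 3 had the lowest share, and the groups did not overlap. Usage rose by 2.78 on the log2 scale (standard error 0.46, 95% interval 1.87 to 3.70, adjusted p 1.3e-04). Without siRNA-NC replicate 3 the estimate was 2.34 and did not pass (adjusted p 0.0718). The other 6 exons of the same transcript had ratios of 0.67 to 0.92, all below 1, and of these the last exon of 1514 bases lay lower in every knockdown library. A second annotated poison exon of Srsf3 (chr17:29040666-29040735, 70 bases), the end of a short decay transcript that starts at the 456-base exon, had 8, 9 and 3 counts in siRNA-NC and 3, 1 and 1 in siRNA-Eif4a3, too few for the usage test. The 2 further Srsf3 lines that passed, of 688 and 216 bases, overlap the poison exon and share its read pairs. Including these, 7 of 202 SR exon lines tested were called, all of them higher.

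**Figure D2:**
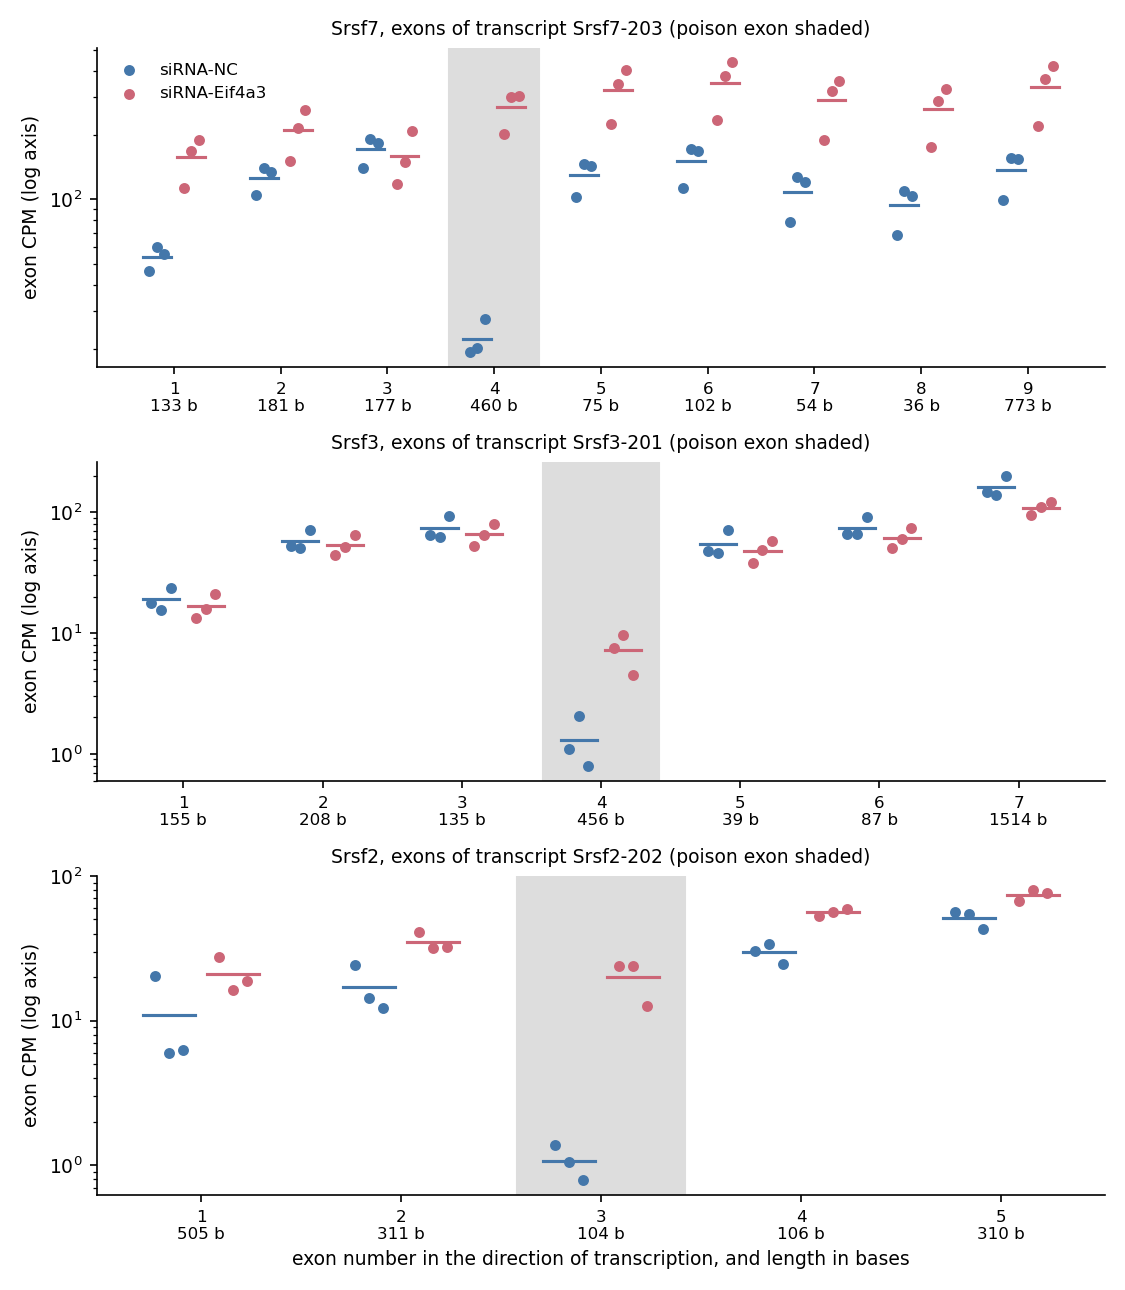
CPM of each exon, on a log axis, along the transcript that includes the poison exon in Srsf7, Srsf3 and Srsf2, with points for single libraries, bars at group means and the poison exon shaded. In Srsf3 the shaded exon is the one that is higher in the knockdown, from 1.31 to 7.21 CPM, while in Srsf7 most exons lie higher and exon 3 next to the shaded exon overlaps.

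In Srsf6 and Srsf9 the stop-bearing cassettes were rarer. The Srsf6 exon (chr2:162932815-162933082, plus strand, 268 bases) is annotated in a decay transcript and also in a transcript typed as coding that ends at the same stop codon, so it did not meet the strict rule for a poison exon. It held 20, 4 and 9 counts in siRNA-NC and 121, 44 and 37 counts in siRNA-Eif4a3, 0.556%, 0.222% and 0.573% against 4.47%, 4.14% and 2.35% of the gene sum. Usage rose by 2.94 on the log2 scale (standard error 0.69, 95% interval 1.56 to 4.32, adjusted p 0.0472). The exon entered this test only through the knockdown libraries, and such a filter lets in exons that are higher there. The call was lost when any 1 library was left out (adjusted p 0.0513 to 0.804) and with RLE size factors (0.0538), while the estimate stayed at 2.66 to 3.21 and 2.93.

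Srsf9 encodes an SR protein close to Srsf1. Its 90-base cassette (chr5:115331450-115331539, plus strand), which follows the stop codon of the decay transcript and overlaps the coding part of an incomplete transcript, held 7, 1 and 8 counts in siRNA-NC and 73, 47 and 55 in siRNA-Eif4a3. That was 0.393%, 0.0954% and 1.74% against 6.17%, 6.06% and 4.03% of the gene sum, with no overlap. The usage estimate of 3.36 (standard error 0.80, 95% interval 1.73 to 4.98) missed the threshold with an adjusted p of 0.0814. With each library left out it ranged from 2.82 to 4.20, and it passed without siRNA-NC replicate 3 (adjusted p 0.00101) but not without any one of the other 5 libraries (0.206 to 0.977). The level of the exon, not relative to its gene, passed (log2 fold change 3.31, adjusted p 0.00603). By that measure 7 of the 16 exons tested passed, all higher, where 5.57% of all exon lines tested were called higher and 5.13% lower. The 7 include the Srsf7 36-base coding cassette, whose usage did not pass. The Srsf9 358-base exon that holds the stop codon (chr5:115328347-115328704) had 4, 2 and 4 against 13, 8 and 12 counts, too few for the test. The Srsf6 268-base and Srsf9 90-base cassettes, and both Srsf11 poison exons, passed the filter on low counts only through the knockdown libraries, which lets in exons that are higher there.

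The Srsf5 exon that rose (chr12:80948129-80948504, plus strand, 376 bases) is the last exon of a non-coding transcript that ends inside the gene. It held 106, 42 and 39 counts in siRNA-NC and 368, 145 and 177 counts in siRNA-Eif4a3, from 2.25%, 1.43% and 1.48% to 9.43%, 9.26% and 5.57% of the gene sum. Usage rose by 2.14 on the log2 scale (standard error 0.44, 95% interval 1.27 to 3.01, adjusted p 0.00534). The 5 exons upstream of it had ratios of 0.75 to 0.84 with overlapping groups. The call was lost without any one of the control libraries or knockdown replicate 1 (adjusted p 0.0536 to 0.338).

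**Figure D3:**
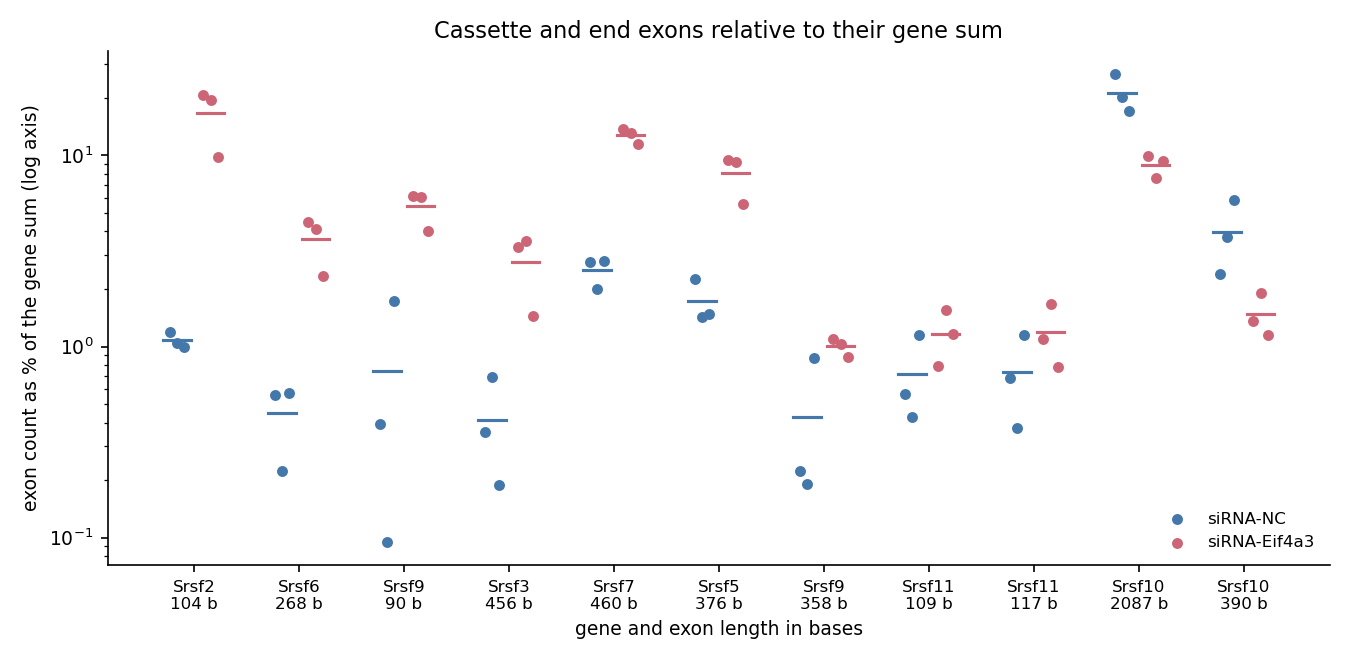
Counts of 11 cassette or end exons as a percent of the gene sum, on a log axis, with 1 point per library and a bar at each group mean. Exons with few counts are not drawn, nor are coding cassettes, or a line overlapping a coding exon, that differed less than 2-fold. The Srsf2, Srsf6, Srsf3, Srsf7, Srsf5 and both Srsf9 exons lie higher in every knockdown library, the 2 Srsf11 poison exons overlap, and the 2 Srsf10 exons lie lower in every knockdown library.

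Srsf11, which encodes an SR-related protein bound to the U2 auxiliary factor, carries a pair of neighbouring poison exons annotated in the same decay transcript. The 109-base exon (chr3:158024123-158024231, minus strand) held 15, 8 and 13 counts in siRNA-NC and 18, 24 and 33 in siRNA-Eif4a3, and the 117-base exon held 18, 7 and 13 against 25, 26 and 22. Relative to the gene sum, which does not hold it, the 109-base exon stood at 0.568%, 0.428% and 1.15% against 0.790%, 1.55% and 1.17%, and both exons overlapped between groups. The usage estimates were 0.84 (95% interval −0.38 to 2.05) and 0.71 (−0.51 to 1.92), each with an adjusted p of 1.0. These intervals include 0 and stop short of the Srsf2 estimate.

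In Srsf10 the lower side was the one without overlap. A 390-base end exon (chr4:135858842-135859231, plus strand) of a non-coding transcript held 38, 68 and 114 counts in siRNA-NC and 39, 49 and 43 in siRNA-Eif4a3, 2.39%, 3.74% and 5.85% against 1.37%, 1.91% and 1.15% of the gene sum. The 2087-base last exon of a coding transcript (chr4:135863729-135865815), most of which the gene sum leaves out, went relative to that sum from 26.6%, 20.2% and 17.0% to 9.88%, 7.63% and 9.38%. The usage estimates were −1.53 (95% interval −2.48 to −0.59) and −1.17 (−1.88 to −0.45), and neither passed over all exon lines (unadjusted p 0.00176 and 0.00174, adjusted p 0.437 and 0.436 by edgeR). Of the exons upstream of the 2087-base exon, the 3 nearest to it were 1.81-fold to 1.99-fold higher in the knockdown without overlap, while the 2087-base exon had a ratio of 0.69 with overlapping levels.

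Poison exons of Srsf4 were barely counted. The most counted, of 198 bases, had 1, 1 and 0 counts in siRNA-NC and 8, 0 and 1 in siRNA-Eif4a3, too few to compare. In Srsf1 the cassette found was a coding exon of 187 bases, with a usage estimate of 0.60 (95% interval −0.41 to 1.60, adjusted p 1.0). Among the 16 exons tested, the coding cassettes of Srsf3 (208 and 87 bases) and Srsf11 (90 bases) had estimates between −0.02 and 0.21. The Srsf11 line of 368 bases had −0.27. It is the first exon of a transcript typed as retained intron and overlaps a coding exon. Lines that contain a whole intron of another transcript, here called retained intron lines, numbered 25 in 9 of the genes. They also count every pair from the exons they span, so they do not measure intron retention alone. Of the 25 lines 24 were tested, with usage estimates from −0.45 to 0.36. By edgeR 0 were called (0 also at an unadjusted p under 0.05), which for the reason given does not decide whether introns were retained.

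**Figure D4:**
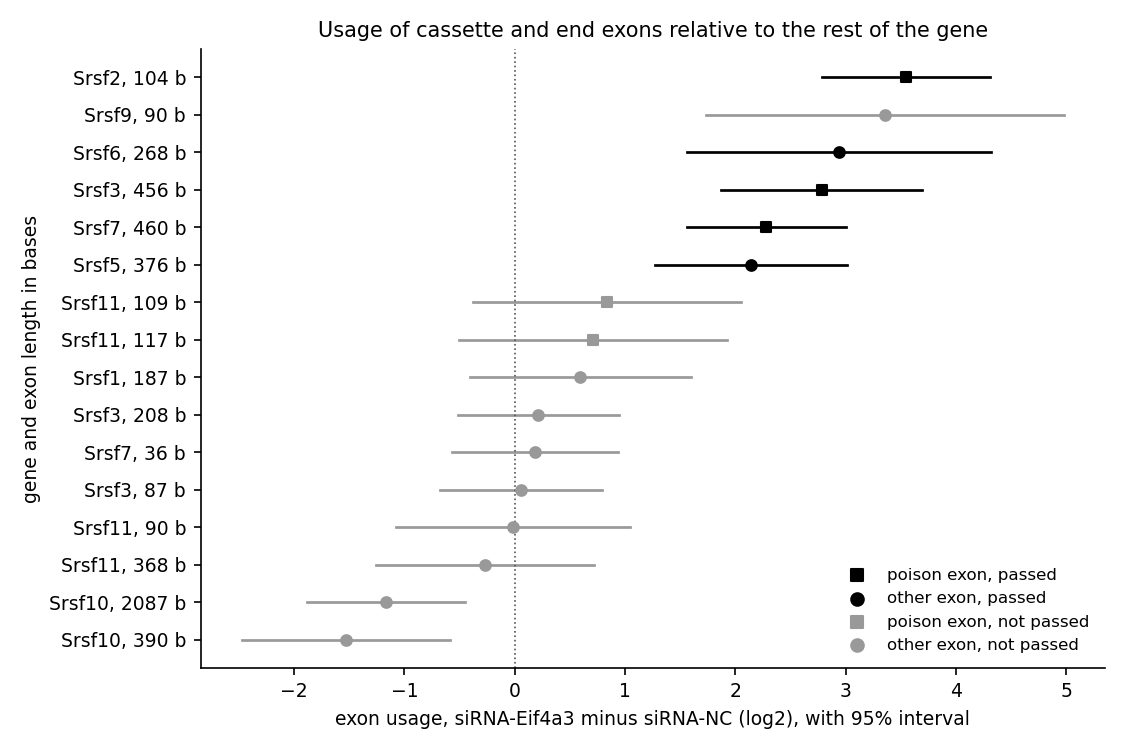
Usage of the 16 tested cassette or end exons relative to the rest of their gene, knockdown minus control on the log2 scale, with 95% intervals, squares for annotated poison exons and black for an adjusted p under 0.05. The 5 black exons lie between 2.14 and 3.55, the Srsf9 exon at 3.36 has the widest interval, and the Srsf10 exons at −1.17 and −1.53 are the lowest.

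In merged blocks, 0 of 50 tested SR blocks were called by edgeR (2 at an unadjusted p under 0.05, lowest adjusted p 0.105), where 0.122% of 66132 blocks were called higher and 0.0408% lower. Most poison exons lose their own value there, because the most counted line of a block is often a retained intron line that spans several exons, or one that leaves the poison exon out. The block with the Srsf7 poison exon is 1126 bases long and made up 24.4% ± 0.80 of the gene sum in siRNA-NC and 24.7% ± 0.92 in siRNA-Eif4a3 (SD, n = 3). The Srsf3 block of 2820 bases went from 30.01% ± 0.43 to 33.9% ± 0.12 without overlap, and the Srsf2 block of 2431 bases from 89.6% ± 6.26 to 82.7% ± 5.81. The Srsf9 90-base exon is a block of its own, and its block estimate was 3.35.

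The same annotation rule, with the same choice among overlapping lines, was applied to every other gene. Of 348 poison exons tested in 296 other genes, 7.76% were called higher and 0 lower by edgeR (4 lower at an unadjusted p under 0.05), and the median usage difference was 0.50 on the log2 scale. Of 8993 other cassette exons, 0.578% were called higher and 0.189% lower, with a median of 0.03. Relative to the gene sum, 43.7% of the 348 lay higher in every knockdown library than in any control library. Poison exons of the SR genes therefore sat among many that were higher in these libraries, and whether they differ from the rest was not tested. As with the SR genes, some of these exons entered through the knockdown libraries alone.

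Among 34 other RS-domain proteins and SR regulators, 33 were tested, 3 were higher and 1 lower, with a median log2 fold change of −0.04, beside 7.52% higher and 5.56% lower over all genes. The 3 were the SR protein kinase gene Clk4 (1.35, adjusted p 0.0201), Luc7l, a U1 snRNP-associated factor (1.20, 0.0186), and the 3′ splice site factor U2af1 (1.37, 0.0136). The lower one was Srrm2, a scaffold of nuclear speckles (−1.35, 0.0214). The poison exon rule found 19 tested exons in 13 genes of the 4 pathway lists, with usage estimates from −0.94 to 3.25 and a median of 0.81. By edgeR 1 was higher and 0 lower (5.26% higher, beside 7.76% over all other genes), the 99-base exon of Rsrc2, an RS-domain protein gene (3.25, adjusted p 0.00853). The other 2 poison exons of Rsrc2 did not pass (1.28 and 1.02, adjusted p 1.0 for each). The poison exons of Tra2a (306 bases, 1.39) and Tra2b (397 bases, 0.81), SR-like regulators with such exons, did not pass (adjusted p 1.0 for each). Of 16 other RNA-binding protein genes known for unproductive splicing, which share 6 genes with that list, 2 were higher (Clk4 and Ptbp2) and 2 lower (Hnrnpd and Hnrnpl), with a median of −0.05. Decay factors had 0 of 10 called in either direction by edgeR (3 at an unadjusted p under 0.05, 0 with DESeq2, median −0.09), and of 7 exon junction complex genes 1 was lower, the targeted Eif4a3, and 0 higher.

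By a fixed rule, the 3 genes outside the family whose log2 level followed the summed SR level most closely over the 6 libraries were Tnfsf13b (Pearson r = 0.998), Slc4a1 (0.998) and CT030636.1 (0.996). The 6 libraries fall into the 2 groups and the sum is mostly Srsf7, so these values describe genes that are higher in the knockdown. Tnfsf13b went from 0.876 to 8.995 CPM, Slc4a1 from 0.110 to 1.66 CPM and CT030636.1 from 0.397 to 4.16 CPM.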

How the data were processed

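The deposited values are raw counts of read pairs per annotated exon line, per the file headers, which name featureCounts 2.0.1 with GENCODE vM29 placed on GRCm38. Per the file headers each pair counted in every line it overlapped, with the reverse strand setting, and no option for pairs with several alignments was given. Smart-seq2 does not mark strand. The submitters' processing notes name fastp 0.20.1, FastQC 0.11.9, STAR 2.7.6a, R 4.1.1 and DESeq2 1.34.0. Here, repeated lines were dropped (842173 lines, 449500 distinct), exons were merged into 291424 blocks, and the most counted line per block was summed per gene. A pair across a junction counts in several blocks. Genes were tested with edgeR 4.0.16 in R 4.3.3 (filterByExpr, TMM, quasi-likelihood), and blocks and exon lines with its exon usage test (diffSpliceDGE), 2-sided, Benjamini-Hochberg adjusted over every feature tested with a threshold of 0.05. The standard error of a usage estimate is the one its p implies. Overlapping exon lines of a gene share pairs and are not independent, so an exon can be compared with lines that hold its own pairs. Decay transcripts, stop codons and sequences came from GENCODE vM21 on GRCm38, which held all 225 SR exon lines. CPM were scaled to the effective library size. Single shares were compared by an exact permutation test. The steps were also run on simulated data in which exon lines were drawn independently of each other. That run does not test the usage step on overlapping lines. A poison exon was a cassette line in a decay transcript and in no coding part of a coding transcript. Named exons were the blocks past the threshold and cassettes with at least 10 counts, and genes most alike were the 3 with the highest r. The members, lists and rules were chosen with earlier results of these data known. Alternatives were scaling (RLE), DESeq2 1.42.0, filters, gene values, the replicate number as a block, each library left out, and, chosen after seeing the data, the flanking exons as denominator and the level of an exon line.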

Additional observations from a re-analysis of the deposited data

How the results depend on the processing

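The count of SR genes called was 1, and 2 with DESeq2, 3 with the most counted block alone, and 0 to 1 with each library left out. The count of blocks called was 0 to 1, and that of cassette exons 5, and 2 to 4, with each library left out. The Srsf2 exon kept its call in every exon setting. Directions turned for 6 gene or exon usage values, of which the Srsf1 exon was the one furthest from 0. Relative to the gene sum, the log2 ratio of the Srsf2 81-base exon turned from −0.36 to 0.24 without siRNA-NC replicate 3. That of the Srsf11 90-base exon (0.04) ranged from −0.14 to 0.16 with each library left out. Srsf9 (−0.03) had 0.0273 under the filter of 5 CPM, 0.0374 with the most counted block, 0.0393 with the replicate block and −0.38 to 0.29 with each library left out, and Srsf11 then ranged from −0.14 to 0.33. The Srsf11 90-base exon (−0.02 in usage) had 0.0270 with the replicate block, 0.14 for its level and −0.14 to 0.12 in usage with each library left out. As a level, and not relative to the gene, the coding cassettes had −0.17 (Srsf1, 0.60 in usage), −0.11 (Srsf3, 208 bases, 0.21 in usage) and −0.27 (Srsf3, 87 bases, 0.06 in usage). For these the cause was not tested.

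The labels do not say whether replicate numbers pair the libraries. Same-numbered ones correlated at 0.37, 0.00073 and 0.13 after group means were removed, and not every library correlated best with its own number. With 3 libraries per group, such correlations cannot decide whether the libraries were paired. With the replicate block 1 SR gene, 0 blocks and 5 cassette exons were called, as without it. Over all genes the calls were 2043 and 2530 with the block. They were 3267 with DESeq2, 3607 with no filter, and 886, 970, 1122, 1164, 1246 and 2354 with single libraries left out. Over exon lines they were 365 with the block and 72 to 284 with single libraries left out, against 149 higher and 65 lower. With 3 libraries per group and 11 to 43 counts, the 5 untested cassettes could not be compared at this depth. Members with near-identical copies elsewhere in the genome are uncertain, since no multiple alignments were counted.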
